A study of Mus musculus with 28 samples.

Results

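Glycolysis enzymes were followed in mouse small-intestinal organoids given single ligands of the Tgfb superfamily. The members were chosen by name, as Hk1 (ENSMUSG00000037012), Hk2 (ENSMUSG00000000628), Pfkl (ENSMUSG00000020277), Pfkp (ENSMUSG00000021196), Aldoa (ENSMUSG00000030695), Pgk1 (ENSMUSG00000062070), Eno1 (ENSMUSG00000063524), Pkm (ENSMUSG00000032294) and Ldha (ENSMUSG00000063229). They are 9 gene names, which found 10 of the 29413 genes of the BMP table and 10 of the 55416 genes of the TGFb table, because Aldoa has a second entry. That second entry had a mean of 5.62 normalized counts in the BMP table and 0.874 TPM (a measure of transcript share that allows for length) in the TGFb table and was not tested. The other 9 entries all passed the filter of a mean of at least 10, as 9 of the 14746 genes tested in the BMP table and 9 of the 7880 tested in the TGFb table.

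Per its title, the study asks which ligands of this family drive the late maturation of enterocytes at the villus tip. RNA was sequenced from 28 samples. All organoids were wild-type C57BL/6 cultures from intestinal crypts, kept 48 h in ENR medium without Bmp or Tgfb and moved to fresh Matrigel. Treated organoids then received 500 ng/ml of 1 recombinant ligand for 24 h, and controls were left untreated. In the BMP table the untreated and BMP2 groups had 4 samples each, and BMP3, BMP4, BMP5 and BMP7 had 3 each. The TGFb table had 3 control and 3 Tgfb samples. A further table held 2 mesenchymal samples from duodenum of PdgfraH2BeGFP mice, 1 fresh and 1 immortalised with the HPV16 E6 gene and sorted on eGFP. The labels do not say whether samples of a group came from separate cultures or mice. If they did not, the p-values measure only the spread between these samples, which may be technical.

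Glycolysis splits glucose into pyruvate in the cytosol. Hexokinases trap glucose as glucose 6-phosphate, phosphofructokinases commit it to the pathway, and aldolase, phosphoglycerate kinase, enolase and pyruvate kinase carry the carbon on to pyruvate. Lactate dehydrogenase A turns pyruvate into lactate and so renews the NAD needed upstream. Many of these genes are known targets of HIF1, the transcription factor of the response to low oxygen, and absorptive enterocytes also carry Pklr, the liver-type pyruvate kinase.

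The promoters of the members are shown for the letters of the HIF1 core, because 7 of the 9 genes moved together between libraries, as described further on. RefSeq sequence of build GRCm38.p6 was used for the 250 bases before each start. All 9 members were matched, with 16 starts. The motif was ACGTG or GCGTG on either strand, which can overlap the E-box CACGTG. It was present at 13 of the 16 member starts and in 38.6% of 32851 promoters of the same length. The windows of the second and the third start of Aldoa overlap, as do those of Eno1, so letters that they share are counted at both starts. It occurred at least 2 times at 7 of the 16 starts and in 16.7% of all promoters. A match describes letters in a window and is no measured site. The 5 windows below are printed 5′ to 3′ on the gene's strand, with the motif in capitals. They are both starts of Hk1, the member that rose with most ligands (chr10:62379909-62380158, minus strand, and chr10:62340422-62340671, minus strand), Hk2, the member that did not follow the others between libraries (chr6:82774455-82774704, minus strand), Pgk1 (chrX:106186850-106187099, plus strand) and the first start of Ldha (chr7:46845554-46845803, plus strand).
Hk1 start 1: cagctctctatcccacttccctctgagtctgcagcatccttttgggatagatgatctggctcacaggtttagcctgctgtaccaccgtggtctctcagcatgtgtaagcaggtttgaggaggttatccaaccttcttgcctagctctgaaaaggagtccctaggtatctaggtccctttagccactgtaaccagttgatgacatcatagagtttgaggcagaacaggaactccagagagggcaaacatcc
Hk1 start 2: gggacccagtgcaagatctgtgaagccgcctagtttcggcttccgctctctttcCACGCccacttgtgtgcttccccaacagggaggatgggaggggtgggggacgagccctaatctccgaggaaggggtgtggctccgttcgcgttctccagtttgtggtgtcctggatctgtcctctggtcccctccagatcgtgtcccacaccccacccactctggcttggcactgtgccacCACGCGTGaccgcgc
Hk2: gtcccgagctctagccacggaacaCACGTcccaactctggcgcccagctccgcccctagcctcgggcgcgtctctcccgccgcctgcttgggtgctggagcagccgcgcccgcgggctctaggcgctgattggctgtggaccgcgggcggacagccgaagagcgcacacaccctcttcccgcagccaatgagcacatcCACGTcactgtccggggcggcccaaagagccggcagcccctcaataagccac
Pgk1: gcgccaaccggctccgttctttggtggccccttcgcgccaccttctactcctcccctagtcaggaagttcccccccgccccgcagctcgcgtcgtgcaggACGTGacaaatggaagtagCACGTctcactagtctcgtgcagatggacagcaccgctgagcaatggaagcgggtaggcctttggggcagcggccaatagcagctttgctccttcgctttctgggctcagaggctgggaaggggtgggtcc
Ldha start 1: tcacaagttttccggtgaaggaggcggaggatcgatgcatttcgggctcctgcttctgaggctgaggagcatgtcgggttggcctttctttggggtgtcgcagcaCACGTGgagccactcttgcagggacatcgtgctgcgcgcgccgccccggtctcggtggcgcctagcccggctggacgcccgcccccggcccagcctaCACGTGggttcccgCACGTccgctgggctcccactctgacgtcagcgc
The first Hk1 window held no match and the second held 3. Hk2 and Pgk1 held 2 each. The Ldha window held 5 matches when both strands were counted, since each of its 2 E-boxes reads as the core on either strand. The SMAD box CAGAC, the letters bound by the SMAD proteins that carry Bmp and Tgfb signals, was found at 4 of the 16 starts and in 42.2% of all promoters, on either strand. The GC-rich SMAD box GGCGCC was found at 4 of the 16 starts and in 9.59% of all promoters.

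Libraries of the BMP table were 21354602 to 24781361 recovered reads deep, so that a single read corresponded to a normalized count of 0.826 to 1.28. The TGFb and mesenchymal tables are in TPM, which keeps no depth, so their depth is unknown. Organoids carried all 7 epithelial markers. Mesenchymal markers summed to 25.1 to 228 normalized counts per organoid library, and 5 of the 7 were read there. Beside the members' changes, the markers of cell state also moved. The crypt stem markers, 5 of 5 tested, summed to 99818 to 124495 normalized counts in controls, 1165 to 2048 with BMP2 and 3689 to 6505 with BMP4. They summed to 27409 to 77174 with BMP5, where 1 of 5 fell, and to 24229 to 28513 with BMP7, where 3 of 5 fell. The 5 proliferation markers summed to 26450 to 34810 in controls, 2630 to 4084 with BMP2 and 9516 to 13171 with BMP4. The 6 enterocyte markers summed to 45216 to 86529 in controls, 32850 to 95690 with BMP2 and 310200 to 388890 with BMP4. With BMP2 2 of them rose and 2 fell, so that sum hides opposite changes, and with BMP4 all 6 rose. The 5 goblet markers summed to 21940 to 38010 in controls and 28012 to 62580 with BMP2, where 2 rose and 2 fell. With BMP4 they summed to 77300 to 132500, and 4 of 5 rose. The 7 epithelial markers summed to 117340 to 132290 in controls, 668220 to 855640 with BMP2 and 252730 to 361400 with BMP4. With BMP2 6 of them rose and 1 fell, and with BMP4 all 7 rose. Their sums were 212360 to 360040 with BMP5 and 261570 to 376170 with BMP7. Of all genes tested, 36.8% rose and 38.4% fell past the threshold used below with BMP2, and 33.7% and 31.4% with BMP4. With BMP5 9.87% fell, and with BMP7 13.2%. None of the crypt stem, proliferation, enterocyte, goblet or epithelial markers was at 0 throughout a group. The mesenchymal marker Col3a1 was at 0 in the control, BMP5 and BMP7 groups. The part of the markers in the members' changes was not tested. In bulk samples, fewer cells of a type and less RNA per cell cannot be told apart.

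The 3 libraries numbered IV in their titles, called replicate 4 here, 1 each of control, BMP2 and BMP3, stood apart for these genes. Of the 9 members, 7 were lowest in the replicate 4 library of all 3 groups, as were 14.8% of all genes tested. Aldoa, which splits fructose bisphosphate, read 21800, 23100, 8810 and 21100 normalized counts in control replicates 2, 3, 4 and 6. The median ratio of replicate 4 to the other libraries of its group was 0.482 over the members in control, 0.632 in BMP2 and 0.521 in BMP3. Over all genes tested the same medians were 0.968, 0.946 and 0.986. Hk2 did not follow, with ratios of 1.00, 0.837 and 0.988, and Pfkp was lowest in replicate 4 in 2 of the 3 groups. Of the 12 hypoxia targets outside glycolysis, 9 were lowest in replicate 4 in all 3 groups, with median ratios of 0.397, 0.626 and 0.439. Egln3, an oxygen sensor that is itself induced in hypoxia, had ratios of 0.188, 0.285 and 0.282. Hif1a, which encodes the oxygen-regulated subunit of HIF1, was highest in replicate 4 in all 3 groups, with ratios of 1.40, 1.43 and 1.33. The labels give no reason why these libraries differ. BMP4, BMP5 and BMP7 have no replicate 4, so calls that change without these 3 libraries are also given that way below.

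**Figure D1:**
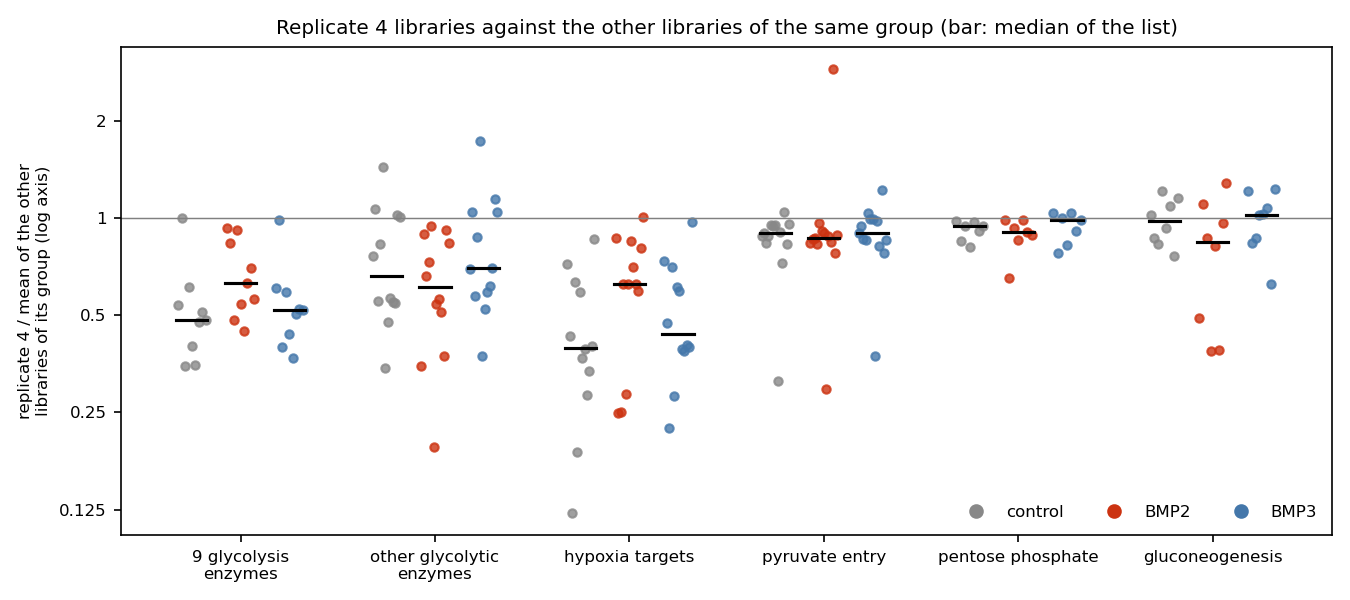
Each point is 1 gene, and the vertical log axis gives its value in the replicate 4 library divided by the mean of the other libraries of its group, for control, BMP2 and BMP3. Bars are the medians of each list, and those of the 9 glycolysis enzymes lie at 0.482, 0.632 and 0.521, while those of the pentose phosphate list lie at 0.945, 0.905 and 0.987.

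The first question was which enzymes differed between organoids given a ligand and the untreated ones measured with them. BMP4 raised 7 of the 9 enzymes and BMP2 raised 6, from hexokinase to pyruvate kinase. In the main fit, which leaves out the replicate number, BMP5 and BMP7 each raised Hk1 alone and BMP3 raised none. Tgfb raised 4. Hk1, Eno1 and Pkm passed the test with BMP2, BMP4 and Tgfb. No enzyme fell past the threshold in these 6 comparisons in the main fit. Some fits with other scaling or fewer libraries put Pfkl lower with BMP2, and Ldha lower with BMP2 or BMP5, as given below. The replicate numbers were taken to pair BMP3, BMP4, BMP5 and BMP7 with the controls. With them as a block, Pfkl also passed as higher with BMP4, Hk2 and Pkm with BMP7, and Ldha as lower with BMP5. Those calls are given below beside the share of all genes tested. Tests used limma with Benjamini-Hochberg adjustment over all genes tested and a threshold of 0.05. Of all genes tested, BMP2 changed 75.1% (36.8% higher, 38.4% lower), BMP4 65.1% (33.7% higher, 31.4% lower) and Tgfb 64.3% (31.4% higher, 32.9% lower). BMP7 changed 32.4% (19.2% higher, 13.2% lower), BMP5 26.3% (16.5% higher, 9.87% lower) and BMP3 0%. Libraries of 4 members with BMP2 and 8 with BMP4 lay wholly above the controls, as did 33.2% and 33.8% of all genes tested. The count of changed members is thus read against a background in which most genes moved with BMP2, BMP4 and Tgfb. The median log2 fold change of the 9 members was 0.82 with BMP2 and 1.17 with BMP4, where the median of all genes tested was -0.03 and 0.04. It was 0.17 with BMP5, 0.28 with BMP7 and 0.21 with Tgfb, beside -0.03, -0.05 and -0.01 over all genes tested. Without the 3 replicate 4 libraries the median of the members was 0.93 with BMP4 and 0.71 with BMP2, and -0.16 and 0.04 with BMP5 and BMP7. With the replicate number as a block it was -0.11 with BMP5 and 0.08 with BMP7, so that of BMP5 changed sign in both fits. The comparisons of the BMP table share their control samples.

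For BMP2 and BMP4 the calls depend on how libraries are scaled. As deposited, control libraries added up to 19.9 ± 0.702 in units of 1e6 normalized counts (SD, n = 4). BMP2 libraries added up to 27.4 ± 1.18 (SD, n = 4), and those of BMP4 to 26.2 ± 0.707 (SD, n = 3), in the same units. Rescaling each library to the same total moved the median of all genes by -0.45 with BMP2 and by -0.39 with BMP4 on the log2 scale. The median of the members was then 0.36 with BMP2 and 0.77 with BMP4, and 0.08 and 0.46 after quantile normalization. With BMP2, Hk1, Hk2 and Pkm then remained higher and Pfkl was lower, with an adjusted p of 0.0126. With BMP4, Hk1, Pfkp, Eno1, Pkm and Ldha remained higher. The share of higher calls among all changed genes fell from 48.9% to 31.8% with BMP2 and from 51.7% to 31.1% with BMP4. Quantile normalization left Hk1 and Hk2 higher and Pfkl and Ldha lower with BMP2, and Hk1 and Pfkp higher with BMP4. The share of higher calls was 62.5% with BMP5 and 59.4% with BMP7. It was 49.8% with BMP5 and 48.0% with BMP7 after quantile normalization, and Hk1 remained the member called with either ligand.

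**Figure D2:**
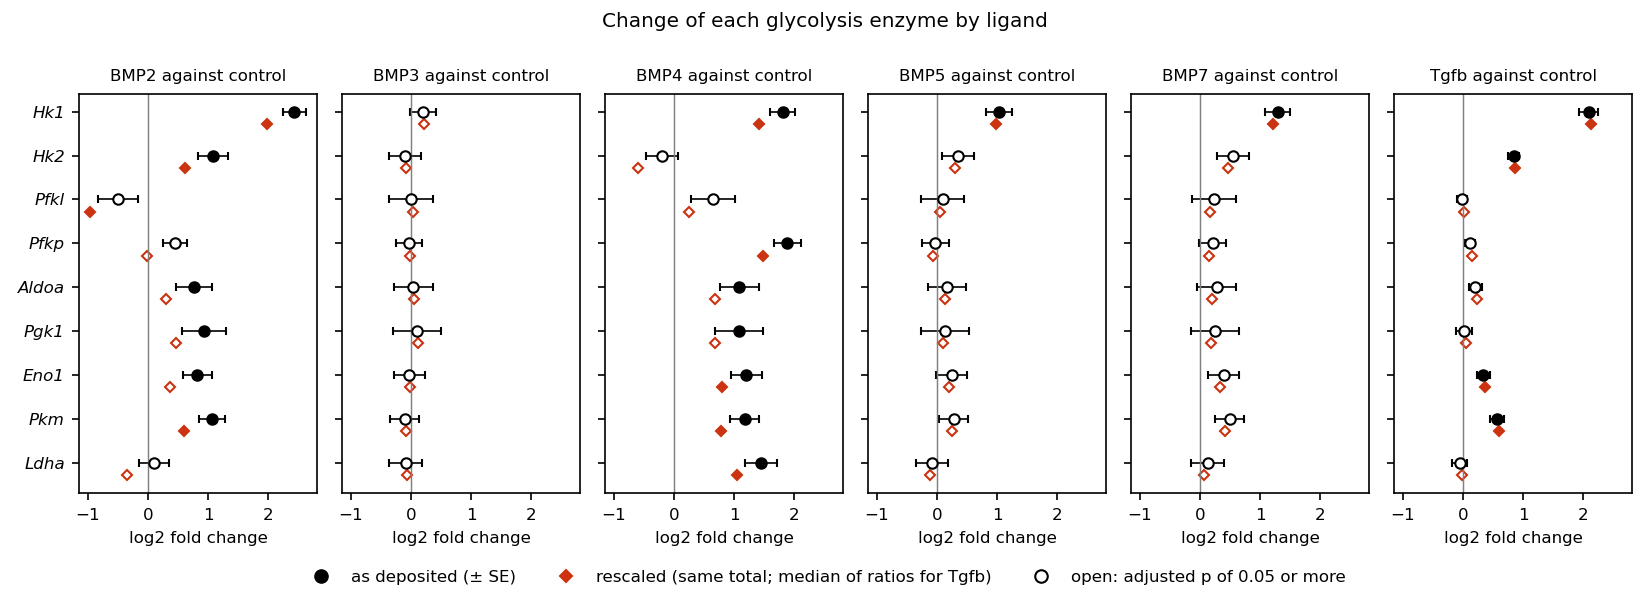
Each panel gives the log2 fold change against control (horizontal axis) of the 9 enzymes for 1 ligand, with black circles for the deposited scale (bars: SE) and red diamonds after rescaling. Filled symbols passed an adjusted p of 0.05, and Hk1 is filled on both scales with BMP2, BMP4, BMP5, BMP7 and Tgfb.

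Hk1, the hexokinase that most tissues express and that sits on the outer mitochondrial membrane, was the enzyme that moved with most ligands. It read 735, 739, 373 and 600 normalized counts in control replicates 2, 3, 4 and 6. With BMP2 it read 3120, 3470, 3030 and 3190 in the same order. All 4 BMP2 libraries lay above every control and above every library of the other ligands. With BMP4 it read 1940, 2140 and 2130 in replicates 2, 3 and 6, with BMP7 1350, 1520 and 1470, and with BMP5 918, 1520 and 1250. Each of these libraries also lay above every control library. BMP3 libraries, at 753, 849 and 487 in replicates 2, 3 and 4, overlapped the controls.

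The log2 fold change of Hk1 was 2.44 ± 0.20 (SE) with BMP2 (adjusted p = 1.82e-09) and 1.81 ± 0.21 with BMP4 (adjusted p = 6.15e-07). It was 1.29 ± 0.21 with BMP7 (adjusted p = 1.36e-04) and 1.03 ± 0.21 with BMP5 (adjusted p = 0.00142). Groups were ordered BMP2, BMP4, BMP7, BMP5, BMP3 and control by mean log2 value. BMP2 against BMP4 (0.63 ± 0.21, adjusted p = 0.0142) and BMP5 against BMP3 (0.83 ± 0.23, adjusted p = 0.0130) were the neighbouring pairs of that order that passed the test. BMP4 against BMP7 missed it at 0.52 ± 0.23 (adjusted p = 0.0584). Hk1 stayed above control in every alternative tried, at a log2 change of 1.98 to 2.54 with BMP2, 1.29 to 1.91 with BMP4, 1.07 to 1.40 with BMP7 and 0.81 to 1.22 with BMP5.

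Hk2, the inducible hexokinase of muscle, fat and growing cells, rose with BMP2 alone among the BMP ligands in the main fit. It read 1280, 2140, 1810 and 2000 normalized counts in control replicates 2, 3, 4 and 6, and 3740, 4560, 3300 and 3530 with BMP2. BMP2 libraries lay above all controls, at a log2 fold change of 1.08 ± 0.25 (adjusted p = 6.42e-04). With BMP4 it read 1010, 2020 and 1790, within the control range or below it, and the change was -0.20 ± 0.27 (adjusted p = 0.521). With BMP7 it read 2120, 3080 and 2650, at 0.54 ± 0.27 (adjusted p = 0.129), and with BMP5 it read 1540, 3050 and 2420, at 0.34 ± 0.27 (adjusted p = 0.382). Replicate 2 was the lowest and replicate 3 the highest library of Hk2 in the control, BMP3, BMP4, BMP5 and BMP7 groups. With the replicate number as a block, Hk2 passed with BMP7 at 0.53 (adjusted p = 0.00394, with 0.00394 to 0.312 over its alternatives).

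**Figure D3:**
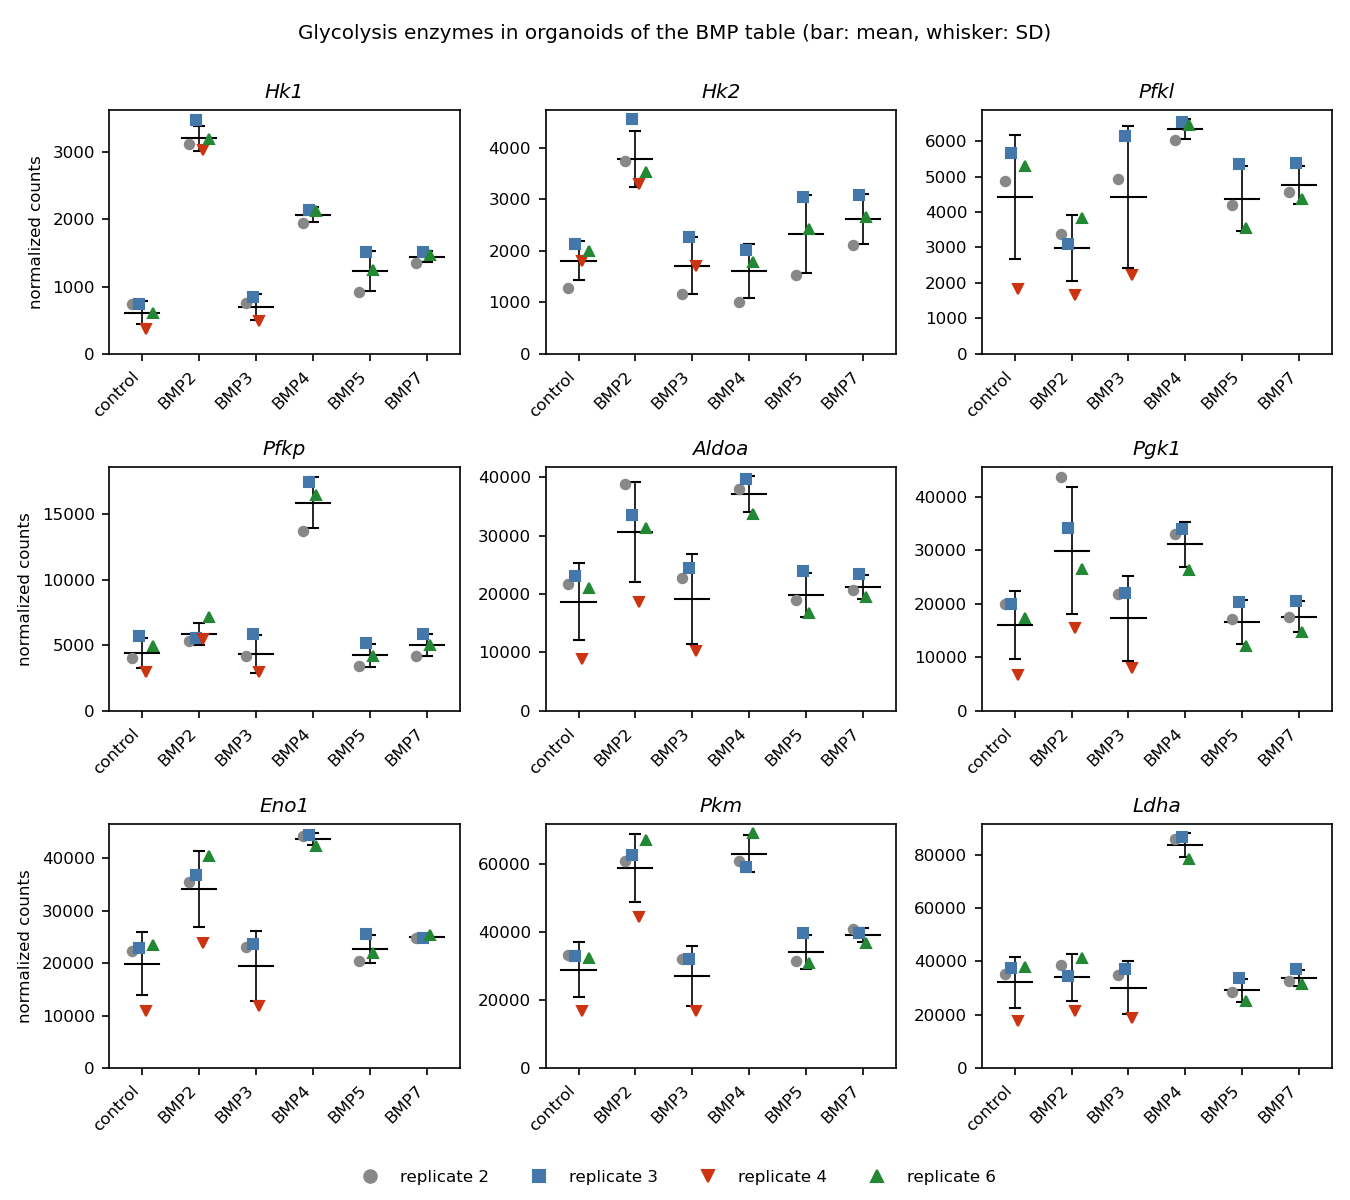
Each panel plots the normalized counts (vertical axis) of 1 enzyme in the 20 libraries of the BMP table by group, with bars for the mean and whiskers for the SD, and the symbol gives the replicate number. Red triangles, replicate 4, sit at the bottom of the control and BMP3 groups for Pfkl, Aldoa, Pgk1, Eno1, Pkm and Ldha, and BMP4 libraries stand above all others for Pfkp and Ldha.

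Both phosphofructokinase subunits were lower with BMP2 than with BMP4, as the direct comparison further on gives, and Pfkp rose with BMP4. Pfkp, the platelet-type subunit, read 4010, 5680, 2990 and 4940 normalized counts in control replicates 2, 3, 4 and 6, and 13700, 17500 and 16500 with BMP4 in replicates 2, 3 and 6. Every BMP4 library was above every other library of the table, and the log2 fold change against control was 1.88 ± 0.22 (adjusted p = 6.41e-07). With BMP2 it read 5340, 5530, 5500 and 7140, which overlapped the controls, at 0.45 ± 0.21 (adjusted p = 0.058). That value turned to -0.01 with the same total in each library. Pfkl, the liver-type subunit, read 4870, 5670, 1840 and 5300 in controls and 3390, 3100, 1660 and 3820 with BMP2. Within each replicate number BMP2 was below control. The change was -0.50 ± 0.34 (adjusted p = 0.186). It passed without the replicate 4 libraries, at -0.62 (adjusted p = 8.62e-04, with 6.70e-07 to 0.529 over its alternatives). With BMP4 Pfkl read 6020, 6550 and 6460, above all controls, at 0.65 ± 0.37 (adjusted p = 0.130). With the replicate number as a block that change was 0.32 (adjusted p = 0.0254, with 0.0254 to 0.698 over its alternatives), which makes 8 of 9 members higher with BMP4 in a fit that put 36.8% of all genes tested higher. With BMP3, BMP5 and BMP7 the log2 changes of both subunits lay between -0.03 and 0.23, and none passed the test. Within shared replicate numbers, Pfkl was below control in all 3 pairs with BMP5 (mean -0.29) and in all 3 with BMP7 (mean -0.15), and Pfkp in all 3 with BMP5 (mean -0.20).

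Aldoa, Pgk1 and Eno1, which carry the middle and lower steps of the pathway, rose with both BMP2 and BMP4 on the deposited scale. Eno1, the common enolase, read 22400, 22900, 10900 and 23500 normalized counts in control replicates 2, 3, 4 and 6. It read 35600, 36900, 23800 and 40500 with BMP2, and 44300, 44500 and 42400 with BMP4 in replicates 2, 3 and 6. Both groups lay above all controls, with the BMP2 replicate 4 library just above the highest control. The log2 fold change was 0.82 ± 0.24 with BMP2 (adjusted p = 0.00476) and 1.20 ± 0.26 with BMP4 (adjusted p = 4.82e-04). With the same total in each library the change with BMP2 was 0.36 (adjusted p = 0.152). After quantile normalization it was 0.08 with BMP2 (adjusted p = 0.755) and 0.48 with BMP4 (adjusted p = 0.0868). A near-identical copy, Eno1b, held 10.6 to 187 normalized counts per library, so the split of reads between the copies is uncertain.

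Aldoa read 38800, 33500, 18700 and 31300 normalized counts with BMP2 in replicates 2, 3, 4 and 6, where replicate 4 was below 3 of the 4 controls. With BMP4 it read 37900, 39700 and 33700, above all controls. The log2 fold change was 0.76 ± 0.30 with BMP2 (adjusted p = 0.0295) and 1.08 ± 0.32 with BMP4 (adjusted p = 0.00676). Pgk1, the first ATP-yielding enzyme of the pathway, read 19900, 20000, 6700 and 17400 in controls, 43700, 34100, 15500 and 26500 with BMP2, and 33100, 34000 and 26300 with BMP4. The change was 0.93 ± 0.37 with BMP2 (adjusted p = 0.0300) and 1.08 ± 0.40 with BMP4 (adjusted p = 0.0247). Of these calls, those of both genes with BMP2 and of Pgk1 with BMP4 were lost when some single libraries were left out. Within shared replicate numbers both genes were above control in all 4 pairs with BMP2, by 0.54 to 1.09 for Aldoa and 0.61 to 1.21 for Pgk1. With BMP4 they were above control in all 3 pairs. Without control replicate 4, the change with BMP2 was 0.43 for Aldoa (adjusted p = 0.145, with 9.22e-07 to 0.854 over its alternatives) and 0.55 for Pgk1 (adjusted p = 0.144, with 3.13e-07 to 0.473), and that of Pgk1 with BMP4 was 0.70 (adjusted p = 0.0974, with 1.84e-05 to 0.285). Aldoa with BMP2 also missed the threshold without BMP2 replicate 2, 3 or 6, Pgk1 with BMP2 without BMP2 replicate 2 or 3, and Pgk1 with BMP4 without BMP4 replicate 2 or 3. Fitting only control and BMP2 libraries put Aldoa at an adjusted p of 0.0528 and Pgk1 at 0.0502 with BMP2. Without all 3 replicate 4 libraries both genes passed with both ligands, at 0.65 and 0.84 with BMP2 and 0.75 and 0.70 with BMP4.

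Pkm, the pyruvate kinase of most tissues outside liver, read 33300, 33100, 16900 and 32500 normalized counts in control replicates 2, 3, 4 and 6. It read 61100, 62800, 44500 and 67200 with BMP2, and 60900, 59100 and 69300 with BMP4. Both groups stood clear of all controls. The log2 fold change was 1.06 ± 0.22 with BMP2 (adjusted p = 2.87e-04) and 1.17 ± 0.24 with BMP4 (adjusted p = 3.03e-04). After quantile normalization Pkm missed the test, at 0.26 with BMP2 (adjusted p = 0.326) and 0.36 with BMP4 (adjusted p = 0.211). With BMP7 it read 41000, 39800 and 36900, again above all controls, at 0.49 ± 0.24 (adjusted p = 0.128). With the replicate number as a block that became 0.29 (adjusted p = 0.0433, with 0.0433 to 0.386 over its alternatives), so that 3 members were higher with BMP7 in that fit, namely Hk1, Hk2 and Pkm, beside 24.0% of all genes tested.

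Ldha, which makes lactate, rose with BMP4 and not with BMP2. It read 35400, 37500, 17800 and 37800 normalized counts in control replicates 2, 3, 4 and 6, and 85900, 86700 and 78700 with BMP4 in replicates 2, 3 and 6. The BMP4 libraries were all above every other library of the table, at a log2 fold change of 1.44 ± 0.27 (adjusted p = 1.30e-04). Ldha with BMP4 was at 0.58 (adjusted p = 0.0511) after quantile normalization. With BMP2 it read 38500, 34700, 21400 and 41400, over the control range, at 0.10 ± 0.25 (adjusted p = 0.727), and the sign of that value changed with the scaling. With BMP5 it read 28500, 33900 and 25300 in replicates 2, 3 and 6, each below the control library of the same number. The change was -0.08 ± 0.27 (adjusted p = 0.858). With the replicate number as a block it was -0.32 (adjusted p = 0.0193, with 0.0134 to 0.984 over its alternatives), so that 2 members changed with BMP5 in that fit, as did 38.9% of all genes tested, and it was -0.35 without the replicate 4 libraries (adjusted p = 0.0468).

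BMP2 and BMP4 are close relatives within the family, and at the same dose and time they were compared directly. Of the 9 enzymes, 5 differed, where 66.8% of all genes tested did, and 2 were higher and 3 lower with BMP2, where 33.4% of all genes tested were higher and 33.4% lower. BMP2 was higher for Hk1, by 0.63 ± 0.21 on the log2 scale, and for Hk2, by 1.29 ± 0.27 (adjusted p = 3.30e-04). BMP4 was higher for Pfkl (-1.15 ± 0.37 for BMP2 minus BMP4, adjusted p = 0.00973), Pfkp (-1.44 ± 0.22, adjusted p = 1.44e-05) and Ldha (-1.34 ± 0.27, adjusted p = 2.56e-04). In these 5 genes and in Eno1 the libraries of the 2 groups did not overlap, as in 60.6% of all genes tested. Aldoa, Pgk1, Eno1 and Pkm differed by -0.38 to -0.11, with adjusted p-values of 0.202 to 0.768. The 5 differences kept their sign in each alternative, and Hk1 missed the threshold after quantile normalization (0.51, adjusted p = 0.0626, with 1.68e-04 to 0.0626 over its alternatives). By limma's F-test among the 5 ligands, 7 of the 9 enzymes differed, where 84.1% of all genes tested did, and Pfkl (adjusted p = 0.0804) and Pgk1 (adjusted p = 0.0871) did not pass.

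BMP5 and BMP7, another closely related pair, raised 1 member each in the main fit. No member differed between them by limma, where 0.0136% of all genes tested did. At an unadjusted p under 0.05 no member and 347 genes differed, and edgeR and DESeq2 on recovered reads called no member either, and over all genes 4 and 23. The differences between BMP5 and BMP7 ran from -0.26 for Hk1 to -0.11 for Aldoa and Pgk1, with SE of 0.23 to 0.43, so changes of that size were not detectable here. BMP3, which is known as an atypical ligand of the family, gave log2 changes of -0.10 to 0.20 over the 9 enzymes. No member and no other gene passed the test with BMP3 by limma. At an unadjusted p under 0.05, 110 genes and no member did. DESeq2 called 1 gene and edgeR none, and neither called a member. All 9 enzymes overlapped between BMP3 and control libraries, as did all but 2.53% of all genes tested.

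Tgfb was measured in its own table, with its own controls and in TPM. Hk1 read 5.37, 6.27 and 8.23 TPM in control replicates 1, 2 and 3 and 27.8, 30.8 and 35.3 TPM with Tgfb. Hk2 read 25.5, 24.6 and 24.96 TPM in controls and 40.9, 44.6 and 51.8 TPM with Tgfb. Pkm read 609, 672 and 744 TPM in controls and 901, 1055 and 1042 TPM with Tgfb. For these 3 genes the groups were clear of each other. The log2 fold change was 2.09 ± 0.16 for Hk1 (adjusted p = 3.24e-05), 0.84 ± 0.09 for Hk2 (adjusted p = 2.29e-04) and 0.57 ± 0.11 for Pkm (adjusted p = 0.00363).

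Eno1 read 817, 836 and 978 TPM in control replicates 1, 2 and 3 and 1017, 1139 and 1173 TPM with Tgfb, at a log2 change of 0.34 ± 0.11 (adjusted p = 0.0283). The groups did not overlap. That call was lost without control replicate 1 or 2 or without Tgfb replicate 2 or 3, at adjusted p-values of 0.0816 to 0.101. Ldha stood at 1702 ± 138 TPM in controls and 1641 ± 205 with Tgfb (SD, n = 3 each), and Pfkl at 95.1 ± 4.19 and 94.0 ± 6.30. The changes of Pfkl, Pfkp, Aldoa, Pgk1 and Ldha with Tgfb were -0.06 to 0.21, and none passed the test. The crypt stem markers summed to 2504 to 2956 TPM in controls and 165 to 172 with Tgfb, all 5 lower. The 5 proliferation markers summed to 696 to 762 TPM in controls and 338 to 360 TPM with Tgfb, all 5 lower. The goblet markers summed to 1020 to 1241 TPM in controls and 689 to 748 TPM with Tgfb, and 4 of 4 tested were lower. The 6 enterocyte markers summed to 3930 to 5719 TPM in controls and 2969 to 3743 TPM with Tgfb, although 4 were higher and 2 lower. Of all genes tested with Tgfb, 31.4% were higher and 32.9% lower. The epithelial markers summed to 3285 to 3564 TPM in controls and 12661 to 16991 TPM with Tgfb, 6 higher and 1 lower. The part of these markers in the changes was not tested.

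Isozyme balance was then followed within each library, as the log2 value of 1 gene minus that of its partner, which does not depend on the library's scale. Hk2 minus Hk1 was 0.80, 1.53, 2.28 and 1.74 in control replicates 2, 3, 4 and 6. It was 0.26, 0.39, 0.12 and 0.15 with BMP2, and -0.94, -0.08 and -0.25 with BMP4 in replicates 2, 3 and 6. Both groups lay below every control. The difference from control was -1.35 with BMP2 (two-sided exact permutation p = 0.0286) and -2.01 with BMP4 (exact permutation p = 0.0286). Leaving out any 1 BMP2 library raised the first exact permutation p to 0.0571, and leaving out any 1 control raised the second to 0.1, the smallest that 3 against 3 samples allow. With Tgfb it was -1.25 and the groups again did not overlap, with an exact permutation p of 0.1.

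Pfkp minus Pfkl was 1.24 higher with BMP4 (exact permutation p = 0.0571) and its groups did not overlap. It was 0.95 higher with BMP2, also at an exact permutation p of 0.0571, and there the groups overlapped. Pklr, the liver-type pyruvate kinase, stood at 5725 ± 963 in controls, 7962.5 ± 980 in BMP2 libraries (SD, n = 4 each) and 21133 ± 3288 in the BMP4 group (SD, n = 3). Pkm minus Pklr differed from control by 0.58 with BMP2 and -0.71 with BMP4. Both had an exact permutation p of 0.114 and overlapping groups. With Tgfb this ratio was 1.01 higher (exact permutation p = 0.1). Adjustment ran over the 24 differences tested, and the lowest Benjamini-Hochberg adjusted value was 0.211, so no ratio passed the correction. The smallest exact permutation p that the samples allow was 0.0286 with the BMP ligands and 0.1 with Tgfb. No Tgfb ratio could thus pass, and a BMP ratio could only if many stood at the smallest p together. The correction therefore says little about these ratios. Ldhb, the partner of Ldha, was listed at 0 in all 4 BMP2 libraries and at 2.48 to 7.99 normalized counts in controls, too low for a ratio.

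**Figure D4:**
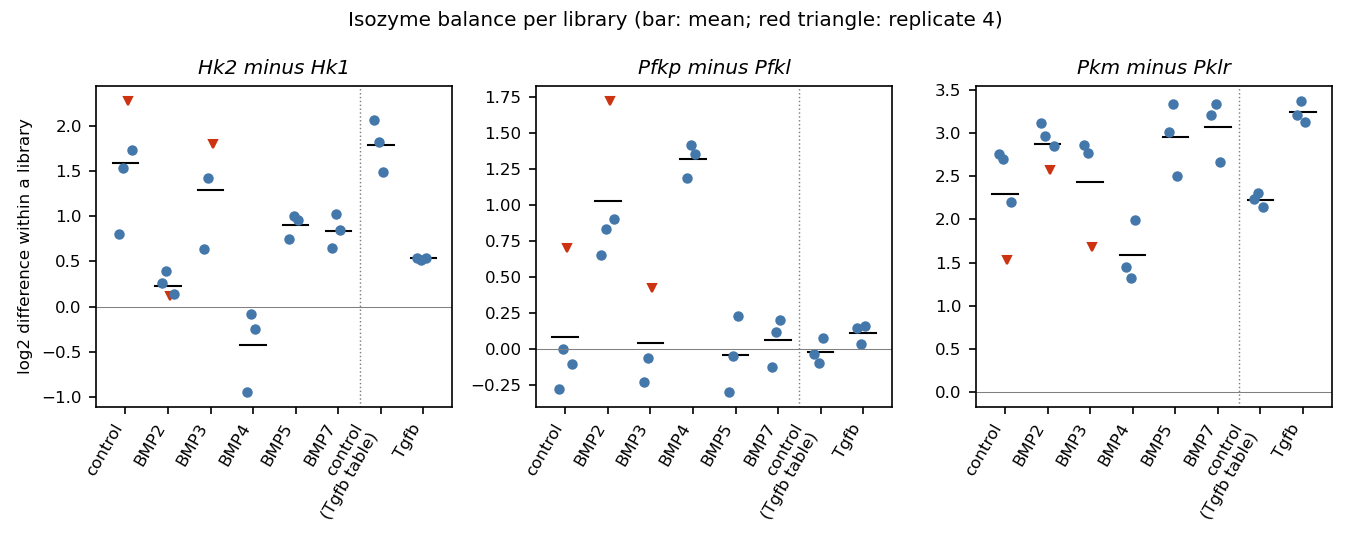
Each panel plots, for 1 pair of isozymes, the log2 value of the first gene minus that of the second (vertical axis) in each library by group, with bars for the group means and red triangles for replicate 4. Hk2 minus Hk1 lies below all controls in the 4 BMP2, 3 BMP4 and 3 Tgfb libraries, and Pfkp minus Pfkl lies above all controls in the 3 BMP4 libraries.

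The rest of the pathway was read from lists around the members. Their counts are read against the shares of all genes tested. These were 36.8% higher and 38.4% lower with BMP2, 33.7% and 31.4% with BMP4, and 31.4% and 32.9% with Tgfb. With BMP5 they were 16.5% higher and 9.87% lower, and with BMP7 19.2% and 13.2%. With the same total in each library the shares were 24.6% higher and 52.8% lower with BMP2 and 21.0% higher and 46.5% lower with BMP4. Of 12 other glycolytic enzymes tested, 10 rose and none fell with BMP4, and 4 rose and 4 fell with BMP2. Their median log2 change was 1.20 with BMP4 and -0.32 with BMP2. The muscle-type enolase Eno3 rose from 71.4 ± 19.99 normalized counts in controls (SD, n = 4) to 1780 ± 670.1 (SD, n = 4) when BMP2 was given and 2020 ± 236 (SD, n = 3) when BMP4 was, by 4.56 and 4.85 on the log2 scale (adjusted p = 1.96e-10 and 1.14e-09). It also rose with BMP5, by 1.67, and BMP7, by 2.83. With the same total in each library, 8 of the 12 were higher and none lower with BMP4, and 2 were higher and 6 lower with BMP2. With Tgfb 2 of 10 rose and 6 fell. Eno3 stood at 4.27 TPM in controls and 64.0 TPM with Tgfb, so it passed the filter only through the Tgfb libraries.

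Genes of gluconeogenesis, the reverse pathway, and of fructose entry were lower with BMP2 than with BMP4. Of 8 gluconeogenesis genes, 6 rose and 2 fell with BMP4, while 1 rose and 6 fell with BMP2, and in the direct comparison all 8 were lower with BMP2 than with BMP4. With the same total in each library 4 were higher and 2 lower with BMP4, and 1 higher and 7 lower with BMP2. G6pc, which releases free glucose, stood at 304 ± 119 normalized counts in controls, 21.7 ± 17.97 in BMP2 libraries (SD, n = 4 each) and 1983 ± 879 in the BMP4 group (SD, n = 3). Fbp1, which opposes phosphofructokinase, fell by 5.15 on the log2 scale with BMP2 (adjusted p = 6.15e-10). All 6 tested with Tgfb fell, and 4 of 8 fell and none rose with each of BMP5 and BMP7. Pcx and Pck1 were below the filter in the TGFb table. Untested Pcx read 3.28 to 4.21 TPM in controls and 8.45 to 12.2 TPM with Tgfb, while Pck1 had means of 0.179 and 0.0209 TPM. The 3 genes of fructose entry rose with BMP4 and fell with BMP2, BMP5, BMP7 and Tgfb. Slc2a5, the fructose carrier, stood at 1226 ± 382 in controls, 41.4 ± 16.3 with BMP2 and 5373 ± 1954 with BMP4. Slc2a1, the basal glucose carrier GLUT1, rose by 1.76 with BMP2 (adjusted p = 4.44e-06), from 1584 ± 483 to 5330 ± 1622 (SD, n = 4 each), and by 1.66 with Tgfb. The sodium-coupled glucose carrier Slc5a1 fell by 4.13 with BMP2 (adjusted p = 1.01e-10).

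Of 13 genes for the entry of pyruvate into mitochondria, 11 fell and 2 rose with BMP2, and all 11 that were tested with Tgfb fell. Pdk4 and Pdp1 were below the filter in the TGFb table. Untested Pdp1 read 4.66 to 5.45 TPM in controls and 11.8 to 12.9 TPM with Tgfb, and Pdk4 had means of 0.0348 and 0.146 TPM. With BMP5 8 of the 13 fell and 1 rose, and with BMP7 7 fell and 2 rose. With BMP4 9 rose and 1 fell, which became 5 higher and 3 lower with the same total in each library. Pdk1, a kinase that turns pyruvate dehydrogenase off, fell by 2.19 with BMP2 (adjusted p = 1.40e-04). Of 12 hypoxia targets outside glycolysis, 6 rose and 1 fell with BMP2, 7 rose and 1 fell with BMP4, 1 rose with each of BMP5 and BMP7, and 6 of 11 rose with Tgfb. Egln3 stood at 1862 ± 982 normalized counts in controls, 7547.5 ± 4736 in BMP2 libraries (SD, n = 4 each) and 8510 ± 1487 in the BMP4 group (SD, n = 3). Hif1a itself rose by 1.31 with BMP2 (adjusted p = 1.18e-05), and its change with BMP4 was 0.34 (adjusted p = 0.183). Of 9 regulators of glycolysis, 4 rose and 2 fell with BMP2, and 3 rose and 3 fell with BMP4. The same total in each library left 1 of them higher and 4 lower with BMP2, and 2 higher and 3 lower with BMP4. Of 7 pentose phosphate genes, 2 rose and 5 fell with BMP2, and 3 rose and 1 fell with BMP4. With BMP4 that split turned to 1 higher and 3 lower with the same total, and to 0 higher and 3 lower after quantile normalization.

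Levels can be compared between genes in the tables in TPM, which account for transcript length. In control organoids Ldha was the highest member at 1702 ± 138 TPM (SD, n = 3), followed by Aldoa at 891 ± 67.5, Eno1 at 877 ± 88.1, Pgk1 at 805 ± 85.3 and Pkm at 675 ± 67.4. Pfkl and Pfkp stood near 95.1 and 94.0 TPM, Hk2 at 24.6 to 25.5 and Hk1 at 6.62 ± 1.46. The control ranges of Aldoa, Eno1 and Pgk1 overlapped, as did those of Pgk1 and Pkm and of Pfkl and Pfkp. With Tgfb Hk1 remained below Hk2, at 31.3 ± 3.76 TPM for Hk1 and 45.8 ± 5.56 for Hk2 (SD, n = 3). Hkdc1, a hexokinase gene outside the members, stood at 47.5 ± 6.11 TPM in controls and 38.7 ± 2.47 TPM with Tgfb (SD, n = 3 each). Its mean was thus above that of Hk2 in controls and below it with Tgfb.

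The 2 mesenchymal samples have no replicates and were scaled in another table, so their values carry no test. The label was checked on its markers, and the mesenchymal list summed to 17412 TPM in the fresh sample and 5465 TPM in the immortalised one. Hk1 read 40.9 TPM in fresh and 52.8 TPM in immortalised cells, and Hk2 read 25.5 and 15.3 TPM, so Hk1 was above Hk2 in both. Ldha read 751 and 706 TPM, and Ldhb, which was at 0.579 TPM in control organoids, read 38.4 and 29.1 TPM. Pklr, at 144 TPM in control organoids, was listed at 0 in both mesenchymal samples.

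**Figure D5:**
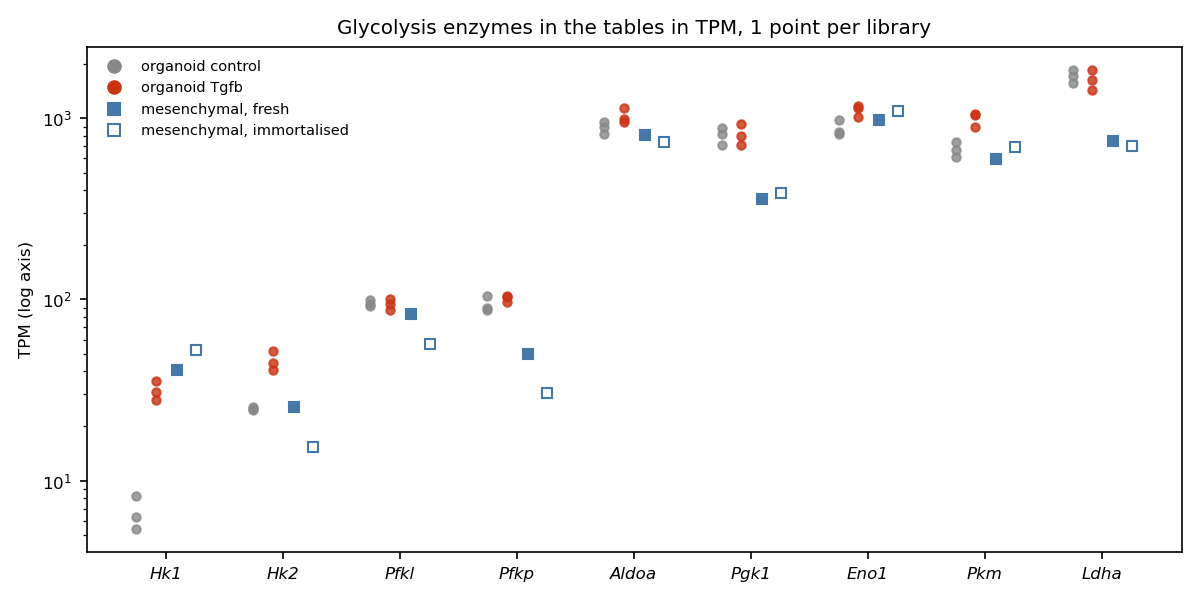
TPM of the 9 enzymes on a log axis, with 1 point per library, in 3 control and 3 Tgfb organoid samples and in 1 fresh and 1 immortalised mesenchymal sample. Hk1 lies between 5.37 and 8.23 TPM in control organoids, between 27.8 and 35.3 with Tgfb, and at 40.9 and 52.8 in the mesenchymal samples, while Ldha is the highest point of each organoid library.

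Patterns most like each member were sought over the 20 libraries of the BMP table, as the Pearson correlation of log2 values with 11855 genes. These libraries share groups and replicate numbers, so the correlations are descriptions. Aldoa was most like Pgk1 (r = 0.983) and Eno1 (r = 0.964), and Pkm was most like Eno1 (r = 0.974). Hk1 was most like Prdm1 (r = 0.976), a transcription factor, and Stx7 (r = 0.975), and Hk2 was most like Gtf2e2 (r = 0.927) and Snapc1 (r = 0.905). The nearest of Pfkl were Ak4 (r = 0.942) and Car9 (r = 0.934), those of Pfkp Mxi1 (r = 0.963) and Kif21b (r = 0.956), and those of Ldha Higd1a (r = 0.965) and Fam162a (r = 0.957). Pgk1 and Pkm were also close to Gm5537 (r = 0.950) and Bnip3l (r = 0.959). Over the 9 enzymes, 5 of the 45 neighbouring pairs of groups, ordered by mean level, differed past the threshold, against 14 with the replicate number as a block and 12 without the replicate 4 libraries. These were the 2 pairs of Hk1 given above, BMP4 over BMP2 for Pfkp, BMP2 over BMP7 for Pkm (0.57 ± 0.24, adjusted p = 0.0468) and BMP4 over BMP7 for Ldha (1.32 ± 0.29, adjusted p = 7.23e-04).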

How the data were processed

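Expression was measured by mRNA sequencing, as single-end reads. Trim Galore, Salmon and DESeq2 and the build GRCm39 are named in the submitters' processing notes, without versions or roles. The deposited values of the BMP table are a signal, read counts scaled by a factor for each library, as read from the values, which keep 3 digits. All of the 180721 values at or below 20 reads were whole multiples of 1 read within 0.05 plus the rounding of the value to 3 digits. The deposited values of the TGFb and mesenchymal tables are TPM, transcripts scaled to a fixed total in each library, and the 3 tables were scaled separately, so tests stayed within a table.

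Tests used limma 3.58.1 in R 4.3.3 with an intensity trend on log2(value + 1), for genes with a mean of at least 10, two-sided, with Benjamini-Hochberg adjustment over all genes tested. The filter used the mean over all libraries of a table, so a gene below it in 1 group could pass through another. The 6 groups of the BMP table entered 1 fit. Fold changes on this scale understate low genes. edgeR 4.0.16 and DESeq2 1.42.0 on recovered reads were alternatives, as were other pseudocounts, filters, scalings, a replicate block and each library left out. The analysis was tested on simulated data. Libraries without replicate 4 and the block with rescaling were chosen after seeing the data. The members and gene lists were chosen with earlier results of these data known. All members were named. From each other list came the genes with the strongest rise and fall among those called, at mean 50 or more and with separate groups. Pklr and Ldhb were named too, and Hkdc1 was added after its values were seen. An isozyme pair that was part of the 24 ratio tests is not reported here. Egln3 and Hif1a in the replicate 4 libraries were picked after their values were seen.

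Same-numbered samples of the control and BMP3, BMP4, BMP5 or BMP7 groups deviated together, with correlations of 0.158 to 0.553, as did BMP5 and BMP7 (0.150 to 0.489), so the numbers were taken to pair them. The labels do not say what a number marks.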

Additional observations from a re-analysis of the deposited data

Results flagged for a closer look

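A library was looked at again where it lay far from the other 3 of its group, that is where its gap to the nearest library, as a share of the group's range, passed Dixon's critical value for 4 samples. The 18 groups of 4 libraries were the 9 enzymes in control and in BMP2. Chance alone marks about 1 in 20 such groups.

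In controls, replicate 4 was the low library for Aldoa (gap 0.860 of the range, 8810 normalized counts), Eno1 (0.913, 10900), Pkm (0.951, 16900) and Ldha (0.880, 17800). These 4 results come from 1 library. With BMP2, replicate 6 was the high library for Pfkp (0.894, 7140 normalized counts, where the other 3 read 5340 to 5530). What sets these libraries apart was not tested.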

How the results depend on the processing

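Of the alternatives run for single members, 557 kept direction and side of the threshold, 31 lost the call, 22 gained one and 13 changed sign. These concern the 34 of 72 members and comparisons that passed the test in at least 1 setting. Of the other 38, 27 changed sign in some setting. The changes of sign touched values that did not pass the test on the deposited scale. Ldha with BMP2 read -0.36 with the same total in each library, alone or with the replicate block, -0.67 after quantile normalization, -0.0078 without BMP2 replicate 6 and -0.16 without control replicate 4, in a range of -0.16 to 0.31 with 1 library left out. Pfkp with BMP2 read -0.013 with the same total, alone or with the block, and -0.081 after quantile normalization. Pfkl with BMP4 read -0.056 with the block and the same total. Hk2 with BMP4 read 0.0997 without BMP4 replicate 2, in a range of -0.40 to 0.0997 with 1 library left out, and it passed as lower with the block and the same total (-0.60, adjusted p = 8.06e-04). Ldha with BMP5 read 0.016 without BMP5 replicate 6, 0.012 without control replicate 3 and 0.016 without control replicate 6, in a range of -0.35 to 0.016 with 1 library left out. The cause was not tested.

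Counts of changed members kept within 1.5 times in 172 alternatives and moved in 12. With BMP4 the count was 2 after quantile normalization. With BMP5 it was 2 under the replicate block, with or without the same total, and 2 without the replicate 4 libraries. With BMP7 it was 3 under the replicate block, 2 with the block and the same total, and 2 when only the 2 groups compared were fitted. With Tgfb it was 2 at a mean of at least 50, where 7 members were tested. With 1 library left out the count ran from 4 to 7 with BMP2, 6 to 7 with BMP4 and 3 to 4 with Tgfb. Neighbouring groups that differed numbered 14 under the replicate block, with or without the same total, 12 without replicate 4 and 8 with 2 groups per fit. For BMP2 against control and BMP2 against BMP4 the numbers did not pair the samples (lowest correlations 0.0182 and -0.040), nor for Tgfb (-0.0192). The replicate block gave 8 members changed with BMP2 (7 higher, 1 lower), in a fit that changed 80.4% of all genes tested (39.4% higher, 41.0% lower). It gave 5 members changed with Tgfb, which changed 64.3% of all genes tested in the main fit.

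Over all genes, the count with BMP5 was 3884 and became 5956 with the block and the same total, 2517 without BMP5 replicate 3 and 2531 without BMP5 replicate 6. With Tgfb it was 5065 and became 1749 at a mean of at least 50. Between BMP5 and BMP7 it was 2 and ran from 0 to 23. With BMP3 it was 0 and reached 6 with 2 groups per fit. The lists around the members moved by over 1.5 times in 58 alternatives and did not in 1110. Of the ratios, 62 alternatives kept their side of 0.05 and 14 lost it, at an exact permutation p of 0.0571 to 0.1 and with the same sign. Of these 14, 10 stood at the smallest p that the samples left allow, so they say nothing about stability. TPM hides the depth of the Tgfb libraries, and 3 digits limit the high values of the BMP table.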
